A study of Mus musculus with 16 samples.

Results

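Metallothioneins and antioxidant enzymes are described here in CD8+ T cells of transplanted mouse kidneys and of spleens. The 9 genes are a named set, chosen with earlier results of these data known: the metallothioneins Mt1 and Mt2, the thioredoxin Txn1 and its reductase Txnrd1, the peroxiredoxins Prdx1 and Prdx5, the glutathione peroxidases Gpx1 and Gpx4, and the superoxide dismutase Sod1. They are 9 of the 16243 genes present in each of the 9 matrices of CD8+ T cells. Expression was measured as CPM, the unique molecular identifiers (UMIs) of a gene per 1000000 UMIs of a library, summed over cells with at least 1 UMI of Cd8a or Cd8b1, the genes of the CD8 coreceptor.

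Accepted grafts were DBA/2J kidneys placed in wild-type C57BL/6J (B6) recipients, and rejecting grafts were B6 kidneys placed in DBA/2J recipients. These strains are taken from the text of the study, by which only male mice were used and both kidneys of the recipient were removed. No age is given in the sources used here. Viable CD45+ cells were sorted from collagenase-digested grafts, and spleens were ground through a strainer without the enzyme. Cells came from accepted grafts and recipient spleens at 1 week (3 libraries each), 3 weeks (5 libraries each), and 24 weeks (3 libraries each) after transplantation, from rejecting grafts (2 libraries) and recipient spleens (3 libraries) at 1 week, and from naive spleen (5 libraries). The sample labels give 1 strain, C57BL/6J, for every group. Libraries were told apart by tags in the cell names. By the methods, every mouse was its own sample, and the replicate numbers stated for accepted recipients match the numbers of tags. No label ties a tag to an animal, and the methods give no replicate number for rejecting or naive mice, so p-values measure the spread between libraries. Several comparisons share libraries, as the 1-week and 3-week grafts each enter more than 1 of them. In summed counts, fewer cells with a transcript and fewer transcripts per cell cannot be told apart. Tissue, the digestion it received, and, for rejecting against accepted grafts, the strain of donor and recipient cannot be told apart.

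Metallothioneins are small cysteine-rich proteins that bind zinc and copper, and their genes are induced by zinc through the factor MTF1, by glucocorticoids, and by oxidative stress. Thioredoxin passes electrons from NADPH, by way of thioredoxin reductase, to peroxiredoxins and other proteins, and peroxiredoxins and glutathione peroxidases remove peroxides. Superoxide dismutase 1 converts superoxide to hydrogen peroxide in the cytosol, and Gpx4 reduces lipid peroxides in membranes. In T cells, activation raises demand for both systems, and zinc-binding metallothioneins have been described in exhausted CD8+ T cells of tumors.

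Mt1 and Mt2 lie next to each other on the plus strand of chromosome 8, at chr8:94179082-94180327 and chr8:94172664-94173568 (GRCm38, GENCODE M21). The 250 bases before their RefSeq starts are printed because metal response elements, the sites of MTF1, are defined by a short core. The cores TGCACNC and TGCGCNC were searched on both strands, with the antioxidant response core TGACNNNGC, and every match is in capitals. No match overlapped another. The windows are chr8:94178839-94179088 for Mt1 and chr8:94172368-94172617 for Mt2, both on the plus strand, with Prdx1 at chr4:116685349-116685598 on the plus strand for comparison (RefSeq, GRCm38.p6).
Mt1: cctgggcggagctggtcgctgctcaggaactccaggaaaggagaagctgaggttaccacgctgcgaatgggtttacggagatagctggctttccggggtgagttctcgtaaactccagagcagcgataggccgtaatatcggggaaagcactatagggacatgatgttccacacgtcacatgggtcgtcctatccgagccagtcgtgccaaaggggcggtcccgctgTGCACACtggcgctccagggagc
Mt2: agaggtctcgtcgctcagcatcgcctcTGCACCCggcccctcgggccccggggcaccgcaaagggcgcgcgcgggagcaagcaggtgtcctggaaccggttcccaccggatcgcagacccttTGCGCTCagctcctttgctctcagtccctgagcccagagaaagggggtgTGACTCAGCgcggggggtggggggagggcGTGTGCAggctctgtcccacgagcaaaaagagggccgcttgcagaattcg
Prdx1: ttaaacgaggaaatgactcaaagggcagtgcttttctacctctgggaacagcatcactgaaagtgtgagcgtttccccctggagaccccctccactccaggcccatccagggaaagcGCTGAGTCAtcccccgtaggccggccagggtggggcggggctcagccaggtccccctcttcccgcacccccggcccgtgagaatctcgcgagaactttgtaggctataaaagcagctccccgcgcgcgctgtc
The Mt2 window held 3 metal response cores and 1 antioxidant response core, and the Mt1 window held 1 metal response core. The RefSeq starts that set these windows differ from the GENCODE starts of Mt1 and Mt2. Bases outside the windows were not searched, so each count holds for its window only and not for the whole promoter. Of 32851 promoter windows of the same length, 21.4% held at least 1 metal response core, 1.26% held at least 3, and 10.2% held the antioxidant response core. Prdx1 and Sod1 held 1 antioxidant response core each, as did 1 of the 3 annotated Txnrd1 windows. Neither core was found in the windows of Txn1, Prdx5, Gpx1, and Gpx4. A match describes letters and is not shown to be a site.

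The other members lie on chromosomes 4 (Txn1, chr4:57943373-57956411, minus strand, and Prdx1, chr4:116685544-116700822, plus), 9 (Gpx1, chr9:108338903-108340343, plus), 10 (Gpx4, chr10:80047166-80056439, plus, and Txnrd1, chr10:82833951-82897712, plus), 16 (Sod1, chr16:90220754-90226329, plus), and 19 (Prdx5, chr19:6906697-6910106, minus). The annotation also holds the copies Txn-ps1 and Gpx4-ps2, so some uncertainty about shared reads applies to Txn1 and Gpx4.

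The 9 matrices held 72639 cells, of which 56585 (77.9%) had a Cd8a or Cd8b1 UMI. A library held between 153266 and 22782080 UMIs in these cells. All 7 CD8+ T cell markers were detected in every group. Myeloid markers (8 genes: Lyz2, Cd68, C1qa, C1qb, Csf1r, Itgam, Fcer1g, and Tyrobp) summed to 384 to 780 CPM in the 3-week grafts. They summed to 210 to 297 CPM in the 1-week grafts, against 15.6 to 36.6 CPM in the 3-week spleens. Expression of these genes by CD8+ T cells and RNA from myeloid cells cannot be told apart in these sums. The same holds where cells with such a UMI were left out. Markers of dividing cells (5 genes) summed to 1236 to 2423 CPM in the 1-week grafts and 72.2 to 88.0 CPM in the 3-week grafts. The share of mitochondrial UMIs was 1.38% to 6.25% over libraries. Pairs of libraries shared at most 21 cell barcodes. At 24 weeks, the graft label resembled the earlier recipient spleens, and the spleen label the earlier accepted grafts, in their share of coreceptor-positive cells. With the graft label, 47.4% of cells had a CD8 coreceptor UMI, against 94.6% with the spleen label. These shares were 96.8% in graft and 46.8% in spleen at 3 weeks, and 84.8% and 44.2% at 1 week. The share does not mark tissue by itself. It was 96.1% in naive spleen, 100% in rejecting spleen, and 77.2% in rejecting graft. An exchange of labels and a change of the cells in both tissues cannot be told apart from these values, so results at 24 weeks are given by label.

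Mt1 and Mt2 were higher in accepted grafts of 1 and 3 weeks than in naive spleen, where both were near the detection limit. Mt1 measured 35.2, 50.3, and 88.6 CPM in the 3 accepted grafts at 1 week. At 3 weeks, its level was 17.5, 38.5, 30.4, 19.1, and 27.6 CPM in the 5 grafts. In the 3 recipient spleens of 1 week it was 2.02, 3.56, and 9.79 CPM. Each 1-week graft was thus above each 1-week spleen, whereas the ranges of 1-week and 3-week grafts overlapped. The 5 spleens of 3 weeks held 2, 2, 2, 1, and 0 Mt1 UMIs, that is, at most 0.801 CPM. Naive spleens held 2, 0, 0, 2, and 0 UMIs.

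Mt2 was likewise higher in the accepted grafts of 1 and 3 weeks than in the spleens of 3 weeks and naive spleens. It was 6.04, 7.87, and 14.6 CPM in the 1-week grafts. At 3 weeks, Mt2 was 2.37, 6.02, 3.72, 2.34, and 4.32 CPM. An Mt2 UMI was found in 0.532% to 1.09% of cells of the 3-week grafts. The spleens of 1 week held 2, 2, and 18 Mt2 UMIs, those of 3 weeks 1 UMI in all, and naive spleens 1 UMI in all. Rejecting spleens held 0, 3, and 1 Mt2 UMIs. Their mean of 7.03 ± 10.9 CPM (SD, n = 3) was above that of the 3-week grafts, with 19.6 CPM in library 2, which had 56 cells. Across the 32 libraries the correlation of log2(CPM + 1) between Mt1 and Mt2 was r = 0.95, a description over libraries that share groups and depth.

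The order of group means for Mt1 was accepted graft at 1 week (58.0 ± 27.6 CPM, SD, n = 3), rejecting graft (55.6 ± 16.3, n = 2), accepted graft at 3 weeks (26.6 ± 8.59, n = 5), rejecting spleen (22.3 ± 31.5, n = 3), spleen label at 24 weeks (7.60 ± 0.751, n = 3), spleen at 1 week (5.13 ± 4.12, n = 3), spleen at 3 weeks (0.543 ± 0.322, n = 5), graft label at 24 weeks (0.538 ± 0.478, n = 3), and naive spleen (0.171 ± 0.234, n = 5). Neighbors in this order had overlapping ranges except rejecting graft and 3-week graft, and 1-week and 3-week spleen. In rejecting spleen, the highest level was in library 2, with 56 cells and 9 Mt1 UMIs (58.7 CPM), while the other libraries held 3 UMIs each.

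**Figure D1:**
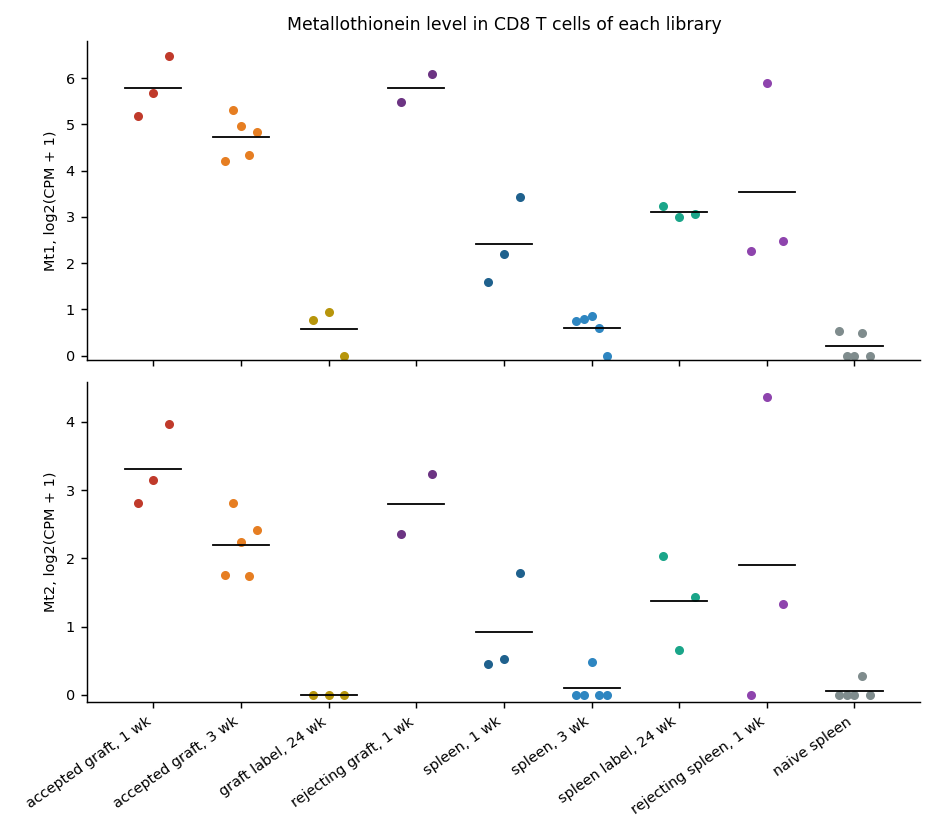
Mt1 (top) and Mt2 (bottom) as log2(CPM + 1), with 1 point for each library and a line at the group mean. The accepted grafts of 1 and 3 weeks and the rejecting grafts lie above the spleens of 3 weeks and the naive spleens for Mt1, and the graft label of 24 weeks has no Mt2 UMI.

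Few cells carried the metallothionein UMIs. Mt1 was detected in 6.77% to 18.7% of cells of the 1-week grafts and in 3.77% to 5.89% of cells of the 3-week grafts. In B cells of naive spleen, which serve as a background, 0.271% of 29127 cells had an Mt1 UMI at a median of 2682 UMIs per cell, and shares in CD8+ T cells of 3-week spleen (0% to 0.368%, median depths of 3595 to 5322.5 UMIs) were near it. B cells from a graft were few. In rejecting kidney 1 of 33 B cells had an Mt1 UMI (3.03%, exact binomial 95% interval 0.0767% to 15.8%, median 1177 UMIs), an interval that takes in the shares of the 3-week grafts, so the background within a graft is poorly known. In myeloid cells of rejecting kidney the share was 22.6%. Cells with an Mt2 UMI also had an Mt1 UMI in 51.7% to 64.3% of cases in the 1-week graft libraries, against 6.15% to 16.7% of cells without Mt2. The same shares were 31.8% to 42.1% and 3.62% to 5.56% at 3 weeks. Cells with Mt1 were also deeper, with library medians of 3860 to 5853 UMIs at 1 week against 1983 to 3523.5 in the rest. The highest count of Mt1 in a cell was 21 UMIs.

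After each cell was thinned to 1000 UMIs, the share of cells with an Mt1 or Mt2 UMI was 2.63%, 4.26%, and 7.71% in the 1-week grafts. It lay between 1.81% and 3.14% in the 3-week grafts (mean 2.49% ± 0.542, SD, n = 5), and between 0% and 0.303% in the 3-week spleens. No cell of these grafts and 4 spleen cells of 3 weeks were too shallow. The graft and spleen at 3 weeks did not overlap and differed by 2.40 percentage points (exact permutation test over libraries, two-sided, p = 0.00794, the smallest that 252 splits can give). With libraries of the same number taken as pairs, the graft was higher in 5 of 5 pairs (exact permutation of signs within pairs, two-sided, p = 0.0625, the smallest that 5 pairs can give), which misses 0.05. The difference between 3-week and 1-week grafts was -2.38 points (exact permutation test, two-sided, p = 0.0536), which missed the threshold of 0.05. Without library 3 of the 1-week grafts it was -0.953 points, and without library 1 it was -3.49 points (exact permutation p = 0.0476). Without thinning, the difference was -8.76 points (exact permutation p = 0.0179). In nondividing cells it was -1.60 points (exact permutation p = 0.143).

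Between 1 and 3 weeks in accepted grafts, Mt1, Mt2, Txn1, and Prdx1 fell and Sod1 rose. Txnrd1 also passed as higher, but with TMM factors, DESeq2, or adjustment for intron length its sign was negative. The test was edgeR's quasi-likelihood F test on counts summed per library, scaled by plain library totals, and p-values were adjusted by Benjamini-Hochberg over all genes tested. The adjusted threshold was 0.05. Of the 9 genes, 6 passed (2 higher, 4 lower), while 74.8% of all 11638 genes tested passed, 53.6% higher and 21.2% lower. A count of 6 is therefore near the background. The median log2 change was -0.25 over the 9 genes and 0.41 over all genes. The all-gene median fell to 0.02 with TMM factors, and the share of calls that were higher went from 71.6% to 49.7%, so values are also read against that median.

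Mt1 fell 2.21-fold (log2 change -1.14, SE 0.26, adjusted p = 0.000928, edgeR), or -1.56 relative to the median gene. Mt2 fell 2.61-fold (log2 change -1.39, SE 0.30, adjusted p = 0.00062, edgeR). Library 3 of the 1-week grafts was highest for both genes. Without it the changes were -0.69 for Mt1 and -0.90 for Mt2, both still past the threshold. Among nondividing cells, that is, cells with fewer than 2 of the 5 dividing markers detected, Mt1 changed by -0.82 and passed, while Mt2 changed by -0.71 and no longer passed (adjusted p = 0.0626, edgeR). Among cells without a CD4, B cell, or myeloid marker UMI, Mt1 changed by -1.19. Stress markers (7 genes) summed to 1388 to 1867 CPM at 1 week and 3293 to 3911 CPM at 3 weeks, and mitochondrial UMIs made up 3.67% to 4.48% and 2.05% to 2.38%. Their part in the changes over time was not tested.

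Txn1, the cytosolic thioredoxin, was higher in 1-week grafts than in any other group, at 605, 621, and 765 CPM. In the 3-week grafts it was 293, 287, 276, 297, and 305 CPM. No 3-week library reached the 1-week range, and the fall was 2.27-fold (log2 change -1.19, SE 0.085, adjusted p = 1.29e-08, edgeR).

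Prdx1, a thioredoxin-dependent peroxidase, measured 391, 367, and 431 CPM at 1 week. At 3 weeks it measured 152, 161, 167, 171, and 168 CPM. The ranges were again separate, with a fall of 2.42-fold (log2 change -1.27, SE 0.077, adjusted p = 3.29e-09, edgeR).

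Sod1 went the other way. It was 138, 117, and 139 CPM at 1 week and 198, 241, 237, 239, and 250 CPM at 3 weeks, a rise of 1.78-fold (log2 change 0.83, SE 0.094, adjusted p = 1.34e-06, edgeR). The rise was 0.42 relative to the median gene. Txnrd1 was 85.2, 75.6, and 86.4 CPM at 1 week and 90.5, 109, 110, 112, and 110 CPM at 3 weeks. Its log2 change was 0.37 (SE 0.089, adjusted p = 0.00159, edgeR) with library totals but -0.02 with TMM factors, -0.03 with DESeq2, and -0.33 after adjustment for intron length, so its direction rests on the scaling.

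Prdx5, a peroxiredoxin of mitochondria and peroxisomes, Gpx1, and Gpx4 did not pass at log2 changes of -0.09, -0.25, and 0.08. With TMM factors all 3 passed as lower, at -0.48, -0.64, and -0.30 (edgeR, adjusted p = 0.000128, 0.000291, and 0.00576), and for Gpx4 this turned the direction. Among nondividing cells, in contrast, Gpx4 passed as higher at 3 weeks. Nondividing cells of the 1-week grafts held it at 207, 190, and 206 CPM, against 218 to 275 CPM in all CD8+ T cells of the 3-week grafts. With library totals, Gpx1 passed without library 2 of the 1-week grafts, at -0.39.

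**Figure D2:**
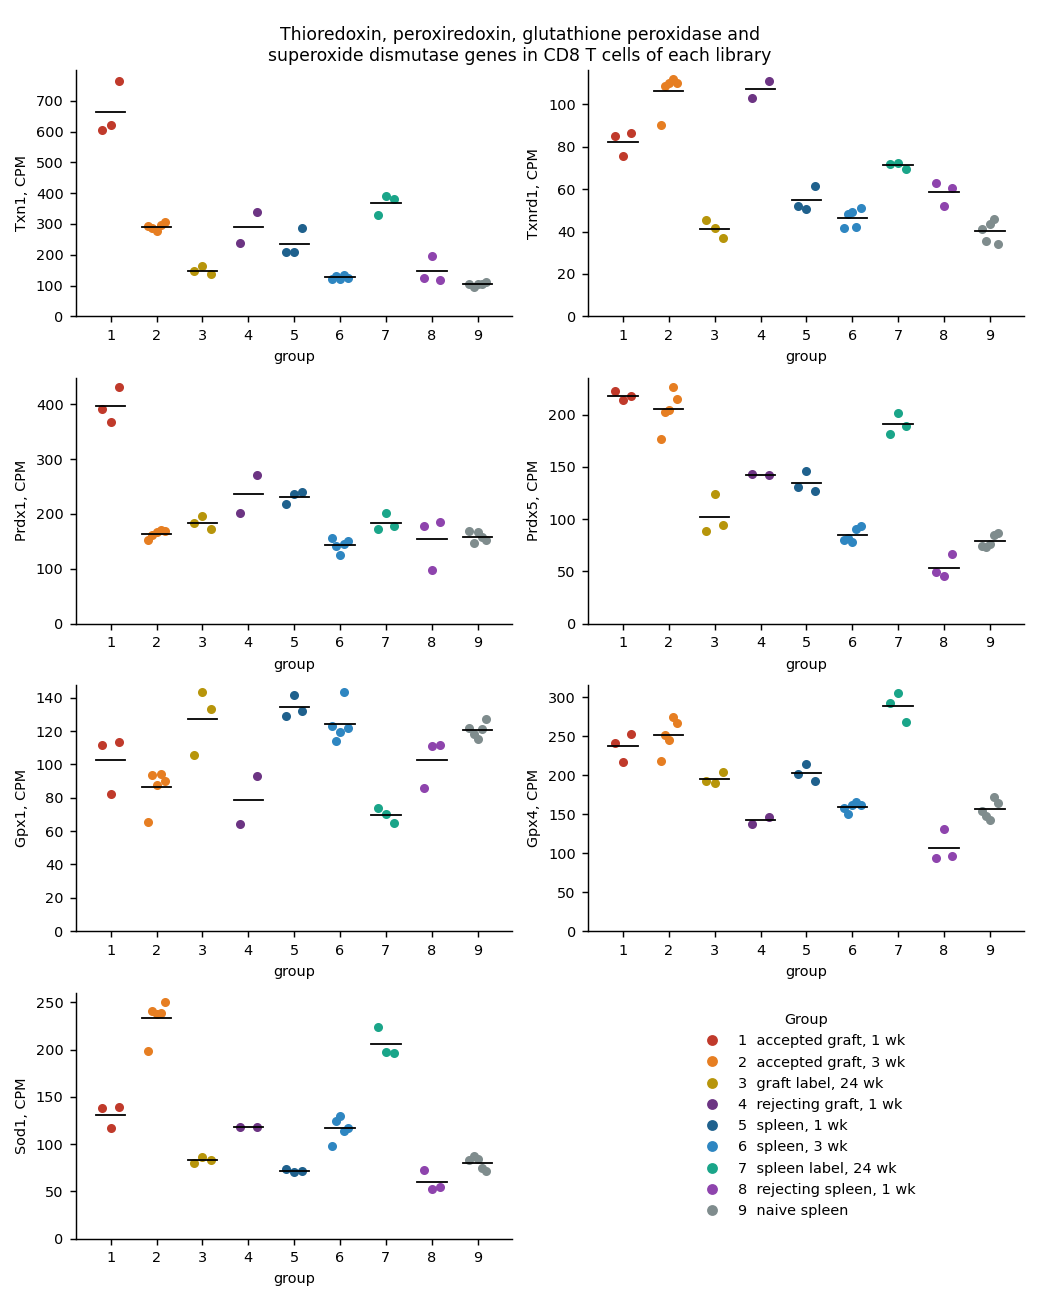
CPM of the 7 enzyme genes in each library (points) with the group mean (line), in the 9 groups named in the legend. Txn1 and Prdx1 are highest in the accepted grafts of 1 week, and Sod1 is highest in the accepted grafts of 3 weeks and the spleen label of 24 weeks.

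Other genes of the same pathways moved in both directions, against 53.6% of all genes higher and 21.2% lower. Of 24 other genes of the thioredoxin and glutathione systems and of related antioxidant enzymes (Sod2 and Cat), 5 rose, 14 fell, 4 did not pass, and 1 was not tested (median log2 change -0.45, against 0.41 over all genes). Prdx4, the peroxiredoxin of the endoplasmic reticulum, changed by -4.56, from 35.3 to 1.52 CPM. Msrb1, a methionine sulfoxide reductase, fell from 51.0 to 20.2 CPM, whereas Txnip, the inhibitor of thioredoxin, rose from 155 to 341 CPM and Gclc, of glutathione synthesis, rose from 13.0 to 21.2 CPM. Of 28 genes of the NRF2 response and NADPH supply, 24 were tested, 7 rose, and 9 fell (median -0.02), with Osgin1 rising from 14.8 to 102 CPM, Keap1, the inhibitor of NRF2, from 28.0 to 56.4 CPM, and the transketolase Tkt falling from 167 to 99.4 CPM. Of 19 genes of zinc and copper handling, 11 rose and 3 fell (median 0.52), which is near the share of all genes. The zinc importer Slc39a6 rose from 24.1 to 58.5 CPM and the zinc exporter Slc30a5 from 14.8 to 22.8 CPM, while Ccs, the copper chaperone of Sod1, fell from 33.2 to 25.9 CPM.

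Grafts at 1 week were compared with recipient spleens of 1 week to ask how levels differed by tissue. Of the 9 genes, 7 were higher in graft and 1 lower, while 49.4% of 11133 genes passed, 30.0% higher and 19.4% lower. The median log2 difference was 0.78 over the 9 genes and 0.08 over all genes. With TMM factors the share of higher calls went from 60.7% to 49.8%. Mt1 was 10.6-fold higher (log2 difference 3.40, SE 0.44, adjusted p = 5.89e-05, edgeR), and Mt2 was 7.76-fold higher (log2 difference 2.96). Library 3 held most spleen UMIs of both genes, and without it the log2 differences were 4.42 for Mt1 and 4.56 for Mt2. Txn1 was higher by 1.50, Sod1 by 0.87, Prdx1 by 0.78, Prdx5 by 0.70, and Txnrd1 by 0.58 on the log2 scale. Txn1 was 207, 207, and 287 CPM in these spleens and Prdx1 was 218, 235, and 240 CPM, all below the grafts. Gpx1, the cytosolic glutathione peroxidase, was the gene that was lower in graft (log2 difference -0.39, SE 0.13, adjusted p = 0.0236, edgeR), and it did not pass without library 2 of the grafts (-0.25) or library 2 of the spleens (-0.35), or among cells without a UMI of other lineages (-0.22). B cell markers (4 genes) summed to 395 to 839 CPM in these spleens and 8.86 to 9.26 CPM in these grafts. Myeloid markers summed to 44.2 to 54.3 CPM in the spleens and 210 to 297 CPM in the grafts, and dividing markers to 257 to 655 CPM and 1236 to 2423 CPM. Mitochondrial UMIs made up 5.53% to 6.25% and 3.67% to 4.48%. The part of these in the differences was not tested. Mt1 and Mt2 also passed among cells without a UMI of other lineages and among nondividing cells. Gpx4 did not pass at 0.22, and passed without library 2 of the grafts, at 0.28, and with all groups in 1 fit, at 0.22.

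At 3 weeks, 8 of the 9 genes were higher in graft than in spleen and 1 was lower, with 65.4% of 10619 genes passing, 48.6% higher and 16.8% lower. The median was 1.19 over the 9 genes and 0.28 over all genes, and the share of higher calls went from 74.4% to 52.0% with TMM factors. Mt1 was 45.1-fold higher (log2 difference 5.50, SE 0.43, adjusted p = 1.04e-09, edgeR) against only 7 spleen UMIs. A ratio of the summed counts was 46.4, with an exact binomial 95% interval of 22.4 to 116 that covers counting error only. For Mt2 the ratio rests on 1 spleen UMI and was 45.7, with an interval of 8.10 to 1813. Mt2 passed in edgeR (adjusted p = 7.4e-06) but no longer met the count filter when any of the 5 graft libraries was left out. Among cells without a UMI of other lineages, Mt1 was higher by 5.06 on the log2 scale. Markers of stress (7 genes), which can move with digestion, summed to 3293 to 3911 CPM in these grafts and 997 to 1238 CPM in these spleens, and their part in the difference was not tested.

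Prdx5 had the largest difference among the enzymes at 3 weeks. It measured 177, 202, 204, 226, and 215 CPM in graft and 80.4, 82.0, 78.5, 91.0, and 93.6 CPM in spleen, 2.42-fold higher (log2 difference 1.27, SE 0.078, adjusted p = 2.06e-11, edgeR). Myeloid cells of rejecting kidney held Prdx5 at 1834 CPM. The gene also passed at 3 weeks among cells without a UMI of other lineages. Txn1 was higher by 1.20, Txnrd1 by 1.19, Sod1 by 1.00, and Gpx4 by 0.66. Gpx1 was lower, at 65.6, 93.6, 87.4, 94.2, and 90.2 CPM in graft and 123, 114, 119, 143, and 122 CPM in spleen (log2 difference -0.53, SE 0.093, adjusted p = 5.4e-05, edgeR). Prdx1 differed by 0.19 (adjusted p = 0.0177, edgeR) with library totals and by -0.07 with TMM factors, -0.08 with DESeq2, and -0.10 after adjustment for intron length. It also lost the call without library 3 of the spleens, at 0.14.

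Other genes of the lists differed in the same comparison, in which 48.6% of all genes were higher and 16.8% lower, with a median of 0.28. Of the 24 thioredoxin and glutathione genes, 22 were tested, 10 were higher, and 4 were lower in graft at 3 weeks (median 0.15), near the share of all genes, with the glutaredoxin Glrx at 141 against 11.5 CPM and the glutathione reductase Gsr at 26.1 against 12.6 CPM. Txnip was lower, at 341 against 697 CPM. Of the 28 NRF2 and NADPH genes, 23 were tested, 11 were higher, and 3 were lower (median 0.29), led by Osgin1 (102 against 0.827 CPM) and the ferritin heavy chain Fth1 (2068 against 799 CPM), and the repressor Bach2 was lower (6.33 against 84.3 CPM). Of the 19 zinc and copper genes, 17 were tested, 5 were higher, and 2 were lower (median 0.10), with Slc39a6 at 58.5 against 17.0 CPM and the zinc transporter Slc30a7 lower at 15.1 against 25.6 CPM.

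**Figure D3:**
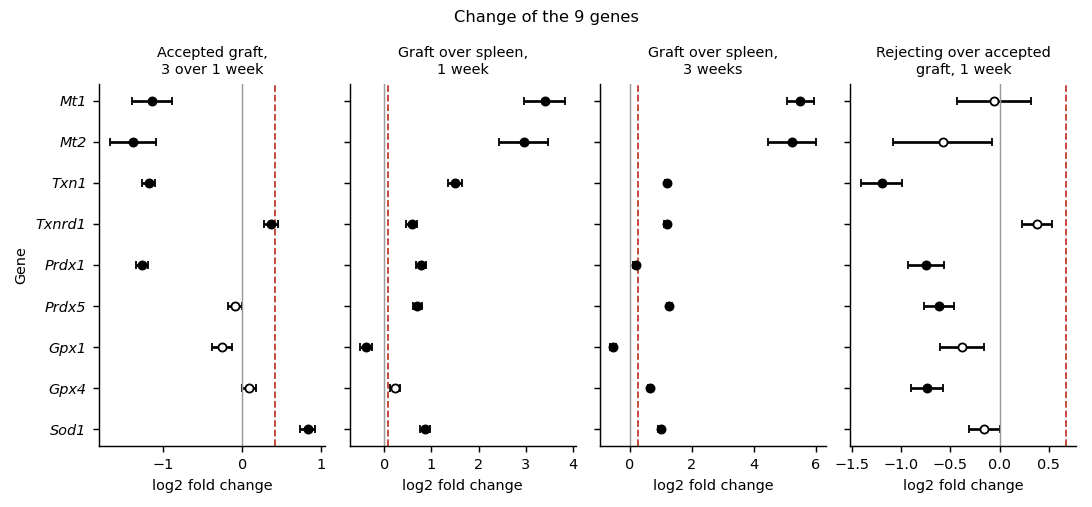
Log2 fold change of the 9 genes in 4 comparisons, with bars of 1 SE, filled points where the adjusted p is under 0.05, and a dashed line at the median of all genes tested. The metallothioneins have the largest differences between graft and spleen, and Gpx1 is on the negative side in all 4 panels.

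In recipient spleens, 5 genes passed between 1 and 3 weeks (1 higher, 4 lower), while 49.3% of 9468 genes passed, 31.9% higher and 17.4% lower, with an all-gene median of 0.17. Txn1 fell by 0.89 on the log2 scale, Prdx1 by 0.68, Prdx5 by 0.67, and Gpx4 by 0.35, and Sod1 rose by 0.70. These 5 genes also passed among nondividing cells and among cells without a UMI of other lineages, with B cell markers at 395 to 839 CPM at 1 week and 103 to 286 CPM at 3 weeks. With TMM factors, Txnrd1 (-0.25 with library totals, -0.39 with TMM) and Gpx1 (-0.11 and -0.26) also passed, and the share of higher calls went from 64.7% to 47.4%. Txnrd1 passed with library totals without library 2 of the 1-week spleens (-0.30) or library 5 of the 3-week spleens (-0.28). Mt1 and Mt2 had too few UMIs to enter the test. Both entered and passed with no count filter and with all groups in 1 fit, and Mt1 also with all cells. Summed over libraries, Mt1 was 5.73 CPM at 1 week and 0.57 CPM at 3 weeks, a ratio of 10.1 with an interval of 4.70 to 25.6 that covers counting error only. Library 3 held 72 of the 99 UMIs of the 1-week spleens, and without it the level was 2.72 CPM and the ratio 4.77 (interval 2.03 to 13.0).

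Whether the change over time differed between graft and spleen was tested as an interaction, without pairing of libraries. Of the 9 genes, 4 passed (3 higher, 1 lower), while 33.7% of 11895 genes passed, 24.3% higher and 9.48% lower. Txnrd1 (log2 difference of changes 0.61, adjusted p = 0.00138, edgeR), Prdx5 (0.57, adjusted p = 0.000854, edgeR), and Gpx4 (0.43, adjusted p = 0.00571, edgeR) changed more positively in graft. Gpx4 did not pass with TMM factors (0.25) or with DESeq2 (0.20). Prdx1 changed more negatively in graft (-0.59, adjusted p = 0.000375, edgeR). The all-gene median of this contrast was 0.23, and the share of higher calls went from 71.9% to 49.6% with TMM factors. The interaction for Mt1 was 2.11 with an SE of 1.03 (adjusted p = 0.116, edgeR) and did not pass, though it passed without library 3 of the 1-week grafts (2.56) and with all cells (2.14). For Txn1 it was -0.30 (adjusted p = 0.104, edgeR) and passed with TMM factors (-0.48), with DESeq2 (-0.54), and without library 3 of the 1-week spleens (-0.47).

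At 24 weeks, the graft label was compared with the 3-week grafts, and 9 of 9 genes passed (2 higher, 7 lower). Over all 11534 genes, 71.1% passed, 14.2% higher and 56.9% lower, with a median of -0.51. With TMM factors the share of higher calls went from 19.9% to 48.0%. Myeloid markers summed to 16.1 to 29.3 CPM in the graft label and 384 to 780 CPM in the 3-week grafts. B cell markers summed to 78.4 to 209 CPM against 11.6 to 26.4 CPM, and stress markers to 1640 to 1944 CPM against 3293 to 3911 CPM. Mitochondrial UMIs made up 5.19% to 5.36% against 2.05% to 2.38%. The part of these in the changes was not tested. Mt1 held 2, 3, and 0 UMIs in the 3 libraries with the graft label and Mt2 held none. Mt2 was at least 12.8-fold lower than in the 3-week grafts, taking a floor of 3 UMIs over the group (0.289 CPM), or at least 7.62-fold lower without library 3 of the graft label. Sod1 was lower in the graft label by 1.48 on the log2 scale, Txnrd1 by 1.37, Prdx5 by 1.00, and Txn1 by 0.98. Gpx1 was higher by 0.57, and Gpx4, at -0.36, turned to 0.11 with TMM factors. A change over time and an exchange of labels cannot be told apart in this comparison. Prdx1, at 0.17, was called by a narrow margin (adjusted p = 0.0441, edgeR) and lost the call when any of 6 of the 8 libraries was left out.

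Between the labels of 24 weeks, 7 genes passed (1 higher, 6 lower in the graft label), against 53.8% of 9840 genes, 14.7% higher and 39.1% lower. The all-gene median was -0.23, and the share of higher calls went from 27.3% to 48.0% with TMM factors. Myeloid markers summed to 16.1 to 29.3 CPM in the graft label and 137 to 145 CPM in the spleen label. B cell markers summed to 78.4 to 209 CPM against 13.9 to 42.8 CPM, and stress markers to 1640 to 1944 CPM against 3295 to 3924 CPM. Mitochondrial UMIs made up 5.19% to 5.36% against 3.49% to 3.78%. The part of these in the differences was not tested. Mt1 was 8.45, 7.03, and 7.31 CPM in the spleen label. Sod1 was 79.9, 86.7, and 83.2 CPM in the graft label and 224, 197, and 196 CPM in the spleen label, and Txn1 was 146, 162, and 137 CPM against 330, 392, and 382 CPM. Txn1 and Sod1 were each lower by 1.31 on the log2 scale in the graft label (SE 0.099 and 0.096). Gpx1 was higher in the graft label, at 105, 143, and 133 CPM against 74.0, 70.3, and 65.1 CPM (log2 difference 0.87, SE 0.12, adjusted p = 6.35e-06, edgeR). The signs of Mt1, Txn1, Txnrd1, Prdx5, Gpx1, Gpx4, and Sod1 were thus opposite to those of graft against spleen at 3 weeks.

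The spleens of recipients were set against naive spleen. At 1 week, 5 genes were higher and 0 lower, while 57.6% of 10160 genes passed, 21.1% higher and 36.5% lower (all-gene median -0.17). With TMM factors the share of higher calls went from 36.6% to 51.9%. At an unadjusted p under 0.05 the count was 6, with Gpx1 added, and with DESeq2 it was 6. Txn1 was 105, 96.5, 105, 106, and 111 CPM in naive spleen and was 2.24-fold higher in 1-week spleens (log2 difference 1.16, SE 0.096, adjusted p = 2.34e-08, edgeR). Prdx5 was higher by 0.77, Prdx1 by 0.54, Txnrd1 by 0.45, and Gpx4 by 0.38 on the log2 scale. Sod1, at -0.16, and Gpx1, at 0.15, did not pass. B cell markers summed to 395 to 839 CPM in the 1-week spleens and 27.9 to 55.6 CPM in naive spleen, and dividing markers to 257 to 655 CPM and 16.9 to 31.0 CPM. Among cells without a UMI of other lineages, and likewise among nondividing cells, Txn1 (1.16 and 0.84), Prdx5 (0.68 and 0.73), Prdx1 (0.50 and 0.39), Txnrd1 (0.55 and 0.38), and Gpx4 (0.33 and 0.30) passed, and Sod1 also passed as lower (-0.23 in both). Txnrd1 did not pass in cells thinned to 1000 UMIs, at 0.28. Mt1 summed to 99 UMIs in 1-week spleens and 4 UMIs in naive spleen, a ratio of 29.5 with a counting interval of 11.2 to 110. The ratio was 14.0 (interval 4.87 to 55.0) without library 3 of the 1-week spleens, 46.0 without library 1 of naive spleen, and 45.1 without library 4 of naive spleen. Mt1 entered the test only when library 1 of the 1-week spleens was left out among the single libraries, and it then passed at 4.99. Mt1 and Mt2 also passed with no count filter and with all groups in 1 fit, and Mt1 with all cells.

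At 3 weeks, 2 genes were higher than in naive spleen, against 12.3% of 9296 genes, 6.86% higher and 5.48% lower. These were Sod1 (97.4, 124, 129, 114, and 117 CPM against 82.9, 87.9, 83.8, 74.4, and 71.4 CPM, log2 difference 0.54, SE 0.081, adjusted p = 3.16e-05, edgeR) and Txn1 (log2 difference 0.27, SE 0.067, adjusted p = 0.00699, edgeR). The Sod1 ranges did not overlap. Txn1 did not pass among cells without a UMI of other lineages (0.24, adjusted p = 0.0541, edgeR), in thinned cells (0.32, adjusted p = 0.0973), or with all groups in 1 fit (0.27, adjusted p = 0.101), with B cell markers at 103 to 286 CPM in these spleens. The other 5 genes tested lay between -0.14 and 0.20.

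Rejecting grafts of 1 week had lower levels of 4 genes than accepted grafts of 1 week and higher levels of 0, while 58.1% of 12222 genes passed, 47.7% higher and 10.4% lower. At an unadjusted p under 0.05, 5 genes passed, with Txnrd1 added, and with DESeq2 7 passed. The median was -0.58 over the 9 genes and 0.68 over all genes. With TMM factors the all-gene median was 0.01, 6 genes passed, and the share of higher calls went from 82.1% to 51.4%. Mitochondrial UMIs made up 1.38% to 1.39% in rejecting grafts and 3.67% to 4.48% in accepted grafts, and stress markers summed to 483 to 1034 CPM and 1388 to 1867 CPM. The rejecting libraries also differed from each other, with 14.5% and 65.4% dividing cells and erythroid markers (5 genes) at 259 and 2.30 CPM. The part of these in the differences was not tested. Txn1 measured 238 and 340 CPM in the 2 rejecting libraries, below every accepted library (log2 difference -1.20, SE 0.21, adjusted p = 0.00145, edgeR). Prdx1 was 202 and 271 CPM (log2 difference -0.74, adjusted p = 0.00844, edgeR), Gpx4 was 137 and 146 CPM (-0.74, adjusted p = 0.00445, edgeR), and Prdx5 was 143 and 142 CPM (-0.61, adjusted p = 0.00795, edgeR). With TMM factors these differences were -1.87 for Txn1, -1.41 for Prdx1, -1.40 for Gpx4, and -1.28 for Prdx5.

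Metallothionein levels in rejecting grafts overlapped those in accepted grafts. Mt1 was 44.1 and 67.1 CPM, and the log2 difference was -0.06 with an SE of 0.38. Mt2 was 4.10 and 8.44 CPM (log2 difference -0.58, SE 0.50, adjusted p = 0.35, edgeR). Relative to the median gene these differences were -0.73 and -1.25. With DESeq2, Mt2 passed as lower. Txnrd1 was 103 and 111 CPM and did not pass at 0.38. It passed in nondividing cells (0.52), in thinned cells (0.52), and with all groups in 1 fit (0.38), whereas the sign was negative with TMM factors (-0.29), with DESeq2 (-0.29), and after adjustment for intron length (-1.03, past the threshold). Gpx1 passed as lower without library 3 of the rejecting grafts, at -0.68, and also with TMM factors, with DESeq2, and with all groups in 1 fit. Sod1 passed as lower with TMM factors and with DESeq2. Against 47.7% of all genes higher and 10.4% lower, with a median of 0.68, 13 of the 19 zinc and copper genes were higher and 1 lower in rejecting grafts (median 1.20). Of the 24 genes of the thioredoxin and glutathione list, which also holds Sod2 and the catalase gene, 3 were higher and 9 lower (median -0.34), including the mitochondrial superoxide dismutase Sod2 (26.1 against 82.8 CPM) and Prdx2 (78.6 against 235 CPM).

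Against the spleens of rejecting recipients, 5 genes were higher in rejecting grafts and 0 lower, while 17.2% of 8187 genes passed, 11.4% higher and 5.79% lower. At an unadjusted p under 0.05 the count was also 5. The median was 0.88 over the 8 genes tested and 0.25 over all genes. With TMM factors the share of higher calls went from 66.4% to 48.2%. B cell markers summed to 3.45 to 8.72 CPM in these grafts and 65.2 to 272 CPM in these spleens. Myeloid markers summed to 253 to 331 CPM against 26.4 to 137 CPM, and dividing markers to 1008 to 3426 CPM against 463 to 802 CPM. The part of these in the differences was not tested. Prdx5 was 49.1, 45.7, and 66.5 CPM in these spleens and 2.57-fold higher in graft (log2 difference 1.36, SE 0.28, adjusted p = 0.00397, edgeR). Myeloid cells of rejecting kidney held Prdx5 at 1834 CPM. Mt1 was higher by 2.35 (adjusted p = 0.0286, edgeR), Txn1 by 1.05, Sod1 by 0.93, and Txnrd1 by 0.84. With TMM factors or DESeq2, 1 gene passed, Prdx5. Among cells without a UMI of other lineages, 2 genes passed, Mt1 and Prdx5. The count was 2 without library 3 of the grafts, 1 without library 1, 3 without library 2, and 1 without library 3 of the spleens. Library 2 of the spleens held 56 cells, and without it the log2 difference of Mt1 was 3.73, against 1.57 without library 1 and 1.73 without library 3 of the spleens, where Mt1 did not pass.

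The share of dividing cells, those with at least 2 of the 5 dividing markers, was 25.4% to 50.9% in the 1-week grafts and 0.647% to 1.40% in the 3-week grafts. Dividing cells of the 1-week grafts had more Mt1 in every library, at 49.8, 63.4, and 93.9 CPM against 22.8, 40.4, and 77.4 CPM in other cells. Txn1 was 768, 822, and 844 CPM in dividing cells against 467, 468, and 599 CPM. Prdx1 was 487, 473, and 477 CPM against 310, 287, and 334 CPM. Mt2, Txnrd1, Gpx4, and Sod1 were also higher in dividing cells of all 3 libraries, while Prdx5 was lower in all 3, at 201, 206, and 208 CPM against 240, 220, and 240 CPM. Gpx1 went both ways. The same held in both rejecting grafts for Mt1 (67.6 and 81.3 CPM against 36.9 and 18.6 CPM), Mt2, Txn1, Txnrd1, Prdx1, Gpx4, and Sod1, and Prdx5 was lower. In the rejecting grafts Mt2 rests on 3 and 21 UMIs in dividing cells against 5 and 1 UMIs in other cells. The 18.6 CPM of Mt1 rests on 11 UMIs. These values are a description, since dividing cells were deeper, with medians of 3871 to 7587 UMIs against 1758.5 to 3271.5 UMIs in other cells at 1 week. Nondividing cells of the 1-week grafts still held more Txn1 and Prdx1 than any 3-week graft library.

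**Figure D4:**
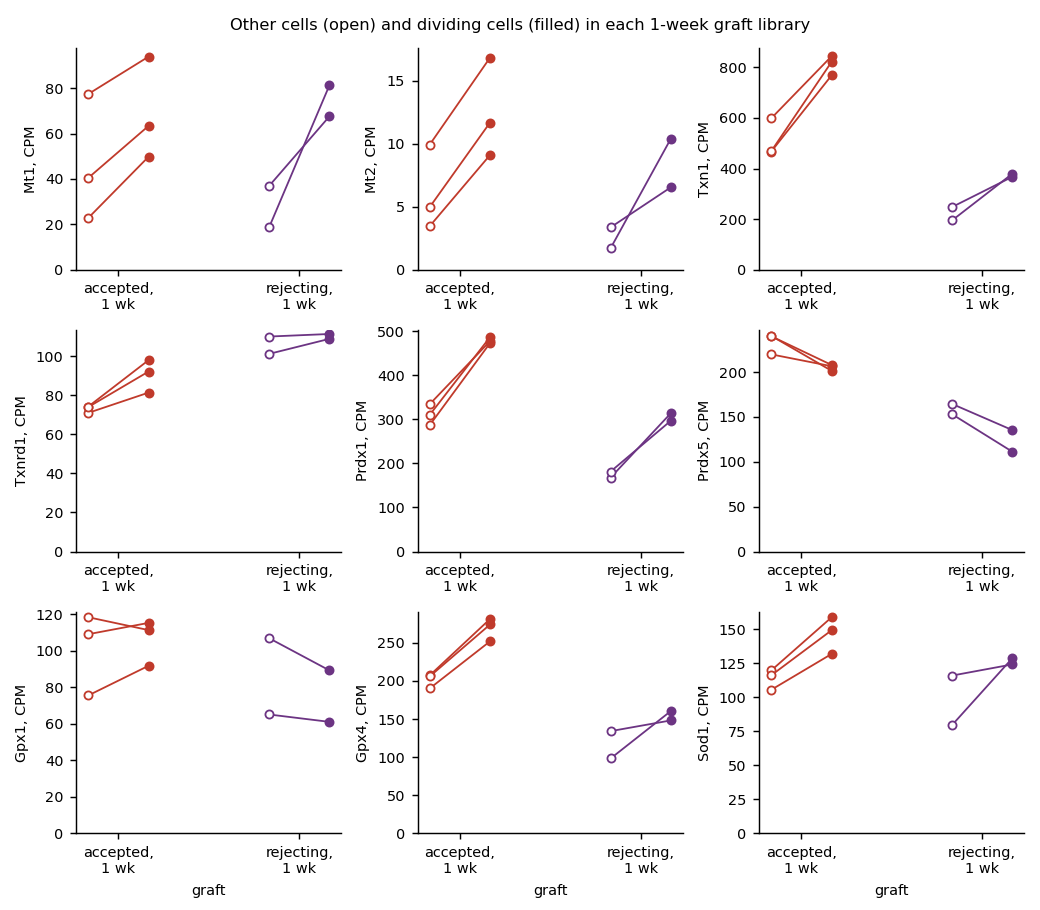
CPM of each of the 9 genes in nondividing (open) and dividing (filled) cells, with a line for each library of the 1-week accepted and rejecting grafts. Mt1, Txn1, and Prdx1 rise from open to filled points in all 5 libraries, and Prdx5 falls in all 5.

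Cells of a graft were also divided by whether they held a UMI of Pdcd1, the gene of the inhibitory receptor PD-1. Such cells made up 40.9%, 54.4%, and 52.4% of the 1-week grafts and 56.5% to 66.2% of the 3-week grafts, against 0.0309% of naive spleen B cells (median 2682 UMIs), 0.721% of rejecting kidney myeloid cells (median 2539 UMIs), and 1 of 33 rejecting kidney B cells (3.03%, exact binomial 95% interval 0.0767% to 15.8%, median 1177 UMIs). The graft label of 24 weeks had 2, 5, and 6 such cells and was not tested. Cells with Pdcd1 were deeper, with medians of 2661, 4366.5, and 3156 UMIs against 1821, 3182, and 2265 UMIs at 1 week, and a larger part of them was dividing (37.2%, 33.2%, and 58.6% against 18.0%, 16.2%, and 42.4%).

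At 1 week, 7 of the 9 genes were higher in cells with Pdcd1 and 0 lower, with the library as a block, while 17.9% of 10442 genes passed, 12.4% higher and 5.54% lower. The unadjusted count was also 7. The median was 0.21 over the 9 genes and 0.04 over all genes, and the share of higher calls went from 69.1% to 54.7% with TMM factors, by which 5 genes passed. Mt1 was 44.5, 55.3, and 102 CPM in cells with Pdcd1 and 25.3, 41.5, and 68.6 CPM in cells without it, 1.49-fold higher (log2 difference 0.58, SE 0.072, adjusted p = 7.6e-08, edgeR). Mt2 was higher by 0.43, Txnrd1 by 0.24, Txn1 by 0.22, Sod1 by 0.21, Prdx1 by 0.16, and Gpx4 by 0.14. Prdx5 (0.01) and Gpx1 (0.03) did not pass.

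These calls depended on how cells with Pdcd1 were found. When Pdcd1 was read after each cell had been thinned to 1000 UMIs, 0 genes passed in edgeR (2 at an unadjusted p under 0.05), Mt1 stood at 0.08, and Txn1, Txnrd1, and Prdx1 turned to -0.01, -0.05, and -0.08. Thinning lowered the share of cells read as having Pdcd1 to 20.8%, 21.5%, and 25.4%, so many cells with Pdcd1 joined the others. With the classes kept and only the counts thinned, 2 genes passed, Mt1 at 0.68 and Txn1 at 0.22 (adjusted p = 5.65e-07 and 1.01e-05, edgeR). Among cells of 1500 to 4000 UMIs, 2 genes passed, Mt1 among them at 0.42, and among nondividing cells 3 passed, with Mt1 at 0.62. The count was 3 without library 1, 2 without library 2, and 6 without library 3. Mt2 did not pass in any of the 3 leave-outs, and Txnrd1, Prdx1, and Gpx4 each did not pass without library 1 or without library 2, so of the 7 calls those of Mt1 and Txn1 alone passed in all 3 leave-outs.

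At 3 weeks, 0 genes passed in edgeR, 0 at an unadjusted p under 0.05, and 0 in DESeq2, while 9.55% of 10269 genes passed, 5.31% higher and 4.25% lower. Mt1 was 18.5, 40.0, 31.8, 17.4, and 28.5 CPM in cells with Pdcd1 and 15.8, 35.1, 28.2, 21.6, and 25.8 CPM in cells without it, higher in 4 of 5 libraries (log2 difference 0.10, SE 0.087). All 7 enzyme genes lay between -0.04 and 0.05. Txn1 was lower in cells with Pdcd1 in 5 of 5 libraries, by a log2 difference of -0.04 (SE 0.029, adjusted p = 0.549, edgeR), and at 1 week it was higher in 3 of 3. The difference of the PD-1 contrast between 3 and 1 week passed for 4 genes, 0 higher and 4 lower, against 6.08% of 11175 genes, 2.26% higher and 3.82% lower. These were Mt1 (-0.48, adjusted p = 0.0055, edgeR), Txn1 (-0.26, adjusted p = 7.82e-05, edgeR), Txnrd1 (-0.25, adjusted p = 0.0324, edgeR), and Prdx1 (-0.16, adjusted p = 0.0495, edgeR). Unadjusted, 5 genes passed. Prdx1 lost its call in 7 of 8 leave-outs and Txnrd1 in 4 of 8, whereas Mt1 and Txn1 passed in all 8. The count was 2 without library 1 or 2 of the 1-week grafts or library 5 of the 3-week grafts, 2 with TMM factors (Mt1 and Txn1), 1 with DESeq2 (Txn1), and 0 when Pdcd1 was read after thinning or among cells of 1500 to 4000 UMIs (2 unadjusted in each).

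In the 2 rejecting grafts, 1 of 8 genes tested passed, against 1.75% of 8442 genes, 1.04% higher and 0.711% lower. Mt1 was 53.9 and 77.1 CPM in cells with Pdcd1 and 26.9 and 31.6 CPM in cells without it (log2 difference 1.15, SE 0.26, adjusted p = 0.00298, edgeR), on 19 and 18 UMIs in the cells without it. With DESeq2 the count was 0 (1 unadjusted), and when Pdcd1 was read after thinning Mt1 stood at -0.01. Mt1 was at 0.47 among nondividing cells and 0.48 among cells of 1500 to 4000 UMIs and did not pass in either (adjusted p = 0.908 and 0.886, edgeR). Txn1 and Prdx1 were higher in cells with Pdcd1 in both libraries and did not pass, at 0.26 and 0.19, and among nondividing cells these values turned to -0.13 and -0.18.

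**Figure D5:**
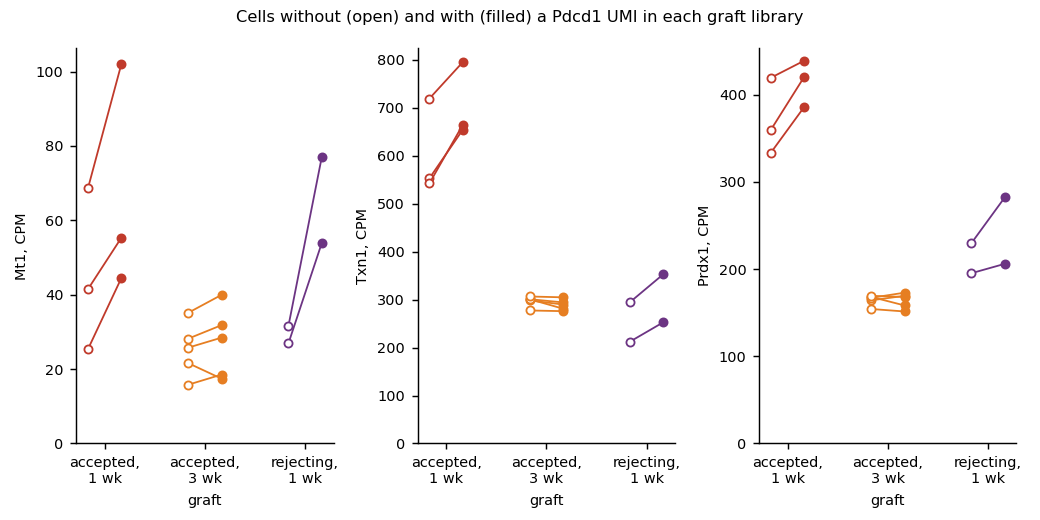
CPM of Mt1, Txn1, and Prdx1 in cells without (open) and with (filled) a Pdcd1 UMI, with a line for each graft library. The lines rise in all 3 accepted libraries of 1 week and in both rejecting libraries, while the 5 libraries of 3 weeks stay within 15.8 to 40.0 CPM for Mt1.

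The pattern of each gene over the 32 libraries was set against 5405 other genes averaging 20 CPM or more, as the Pearson correlation of log2(CPM + 1). The libraries share groups and depth, so r is a description. For Mt1 the most alike were Ybx3 (r = 0.948), Itgb1 (0.942), and Ehd4 (0.940), and for Mt2 Cenpw (0.898), Denr (0.896), and Lcmt1 (0.895). Txn1 was most like Atpif1 (0.956), Cenpa (0.95), and Pdcd5 (0.948), and Prdx1 most like Pomp (0.947), Smdt1 (0.945), and Aurkaip1 (0.931). Prdx5 was most like Vamp8 (0.968), AW112010 (0.967), and Tmbim4 (0.958), and Sod1 most like Arid5a (0.946), Snhg5 (0.932), and Gpr171 (0.928). Txnrd1 was most like Acot7 (0.947), Srgap3 (0.947), and Atp2b4 (0.943), and Gpx4 most like Itm2b (0.939), Rnasek (0.934), and Atp6v1g1 (0.933). Gpx1 was most like Rgs19 (0.895), Eef1g (0.879), and Ppp1r14b (0.868).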

How the data were processed

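Single-cell RNA of viable CD45+ cells was measured with 10x Genomics 3' libraries in the 9 matrices of CD8+ T cells. The authors mapped reads with Cell Ranger to mm10 (submitters' processing notes), called CD8+ T cells by clustering in Seurat, and deposited whole-number UMI counts per gene and cell. They filtered cells on UMIs, genes, and mitochondrial content, with thresholds not given in the sources used here, and how doublets were treated is also not given there; no caller was run here. Matrices of CD45+ cells of rejecting kidney and naive spleen were used for background shares. No matrix had unmapped sample columns (0).

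Counts of cells with at least 1 Cd8a or Cd8b1 UMI were summed per library, and libraries were tested with edgeR 4.0.16 (R 4.3.3) by quasi-likelihood with filterByExpr, plain library totals, and Benjamini-Hochberg adjustment over all genes tested. DESeq2 1.42.0, TMM factors, no count filter, all cells, cells without other lineages' markers, nondividing cells, cells thinned to 1000 UMIs, all groups in 1 fit, intron length, and leaving out each library were alternatives. Shares of cells were compared by exact permutation over libraries (Python 3.11.15, scipy 1.17.1). Intervals and floors (3 UMIs) cover counting error only. Scripts were tested on simulated data.

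Graft and spleen of 3 weeks with the same number deviated together from their group means (r = 0.469, 0.171, 0.116, 0.132, and 0.118 over 5412 genes). Such pairs come from the data and not from the labels. The best partner had the same number for libraries 1, 2, and 4 and another number for libraries 3 and 5, so the pairs are uncertain. The values printed are from fits without pairs. Fits with the number as a block are alternatives for graft against spleen only. The interaction of time and tissue was not fitted with pairs. Members and gene lists were chosen with earlier results of these data known. List genes named in the text had a mean of at least 20 CPM in either group and the largest changes in each direction. Transcript levels were not compared between genes.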

Additional observations from a re-analysis of the deposited data

Results flagged for a closer look

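Library 1 of the 3-week grafts stood apart from the other 4 for 3 genes: Txnrd1 at 90.5 CPM (nearest library 109), Gpx1 at 65.6 CPM (nearest 87.4), and Sod1 at 198 CPM (nearest 237). Mt2 stood apart in library 3 of the 3-week spleens (0.401 CPM) and library 4 of naive spleen (0.207 CPM), in each case from 1 UMI where the other libraries held 0. Chance gives about 1 such value in 20 groups, and 27 groups were tested.

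The change from 1 to 3 weeks differed between graft and spleen, by an interaction test in edgeR, for Txnrd1 (0.61 on the log2 scale), Prdx1 (-0.59), Prdx5 (0.57), and Gpx4 (0.43). The difference between cells with and without Pdcd1 passed the same kind of test between 1 and 3 weeks for Mt1 (-0.48), Txn1 (-0.26), Txnrd1 (-0.25), and Prdx1 (-0.16). None of these passed when Pdcd1 was read after thinning or among cells of 1500 to 4000 UMIs (2 unadjusted in each), Txn1 alone passed with DESeq2, Mt1 and Txn1 passed with TMM factors, and Prdx1 lost its call in 7 of 8 leave-outs.

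Outside the CD8+ T cell matrices, myeloid cells of the rejecting kidney held Mt1 at 128 CPM, above the 32.3 CPM of naive spleen myeloid cells, with 1 matrix of each and no test.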

How the results depend on the processing

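Of 1988 alternative values over 126 results, 1737 kept their direction and side of the threshold, 130 lost the threshold, 49 gained it, and 72 turned direction, 19 of them with a call in either fit and 53 with none. Turned values, on the log2 scale, are given here for each alternative. In 3-week against 1-week grafts, Txnrd1 was -0.021 (TMM), -0.028 (DESeq2), and -0.33 (intron length), and Gpx4 -0.30, -0.31, and -0.13. In the graft label of 24 weeks against 3 weeks, Gpx4 was 0.11 (TMM), 0.12 (DESeq2), and 0.044 (intron length). Prdx1 in graft against spleen at 3 weeks was -0.073 (TMM), -0.076 (DESeq2), and -0.096 (intron length), and between labels at 24 weeks 0.24 (TMM), 0.23 (DESeq2), 0.0085 (all cells), 0.062 (clean cells, those with no UMI of other lineages), 0.0037 (nondividing), and 0.17 (intron length). In rejecting against accepted grafts, Txnrd1 was -0.29 (TMM), -0.29 (DESeq2), and -1.03 (intron length), and Mt1 0.055 (thinned) and 0.17 (intron length). In spleen over time, Gpx1 was 0.0096 (clean) and 0.019 (thinned), and against naive spleen Sod1 was 0.00027 (TMM) and 0.00065 (DESeq2) at 1 week and Txnrd1 -0.053 (thinned) at 3 weeks. The interaction of Sod1 was -0.050 (TMM), -0.10 (DESeq2), and -0.058 (thinned).

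With Pdcd1 read after thinning, Txn1 (-0.011), Txnrd1 (-0.046), Prdx1 (-0.079), and Gpx1 (-0.044) turned at 1 week, Mt1 (-0.038), Mt2 (-0.13), Txnrd1 (0.013), and Prdx1 (0.020) at 3 weeks, Mt1 (-0.013), Prdx1 (-0.013), and Gpx4 (0.054) in rejecting grafts, and Txnrd1 (0.061), Prdx1 (0.099), Gpx1 (0.029), Gpx4 (0.014), and Sod1 (0.0041) in the difference between times. In thinned cells, Txnrd1 (0.030), Prdx1 (0.067), and Gpx4 (-0.0049) turned at 3 weeks and Prdx5 (-0.24) and Gpx4 (0.041) in rejecting grafts. At 1 week Prdx5 was -0.024 (TMM) and -0.027 (DESeq2), and Gpx1 -0.0049 and -0.00085. In rejecting grafts Txn1 was -0.0030 in the depth window, and Txn1 (-0.13), Prdx1 (-0.18), and Sod1 (-0.065) turned in nondividing cells. Leaving out a library turned 12 values with no call, over the ranges -0.048 to 0.063 (Prdx1 between labels), -0.012 to 0.070 and -0.0046 to 0.067 (Gpx1 and Gpx4 in 3-week against naive spleen), -0.41 to 0.39 (Mt1 in rejecting against accepted grafts), and, in the PD-1 contrast at 3 weeks, -0.048 to 0.32 (Mt2), -0.041 to 0.027 (Txnrd1), -0.017 to 0.015 (Prdx1), and -0.0023 to 0.057 (Sod1). The cause was not tested.

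Counts of the 9 genes past the threshold moved by over 1.5 times as follows. Spleen at 3 against 1 week gave 8 with all cells. Spleen at 3 weeks against naive gave 1 with clean cells, with thinned cells, and with all groups in 1 fit (Txn1 lost its call in each). Rejecting against accepted graft gave 7 with DESeq2, and rejecting graft against its spleen gave 1 with TMM, 1 with DESeq2, 2 with clean cells, and 2 with intron length. The PD-1 contrast at 1 week gave 2 with DESeq2, 0 with Pdcd1 read after thinning, 2 in the depth window, 3 in nondividing cells, 2 in thinned cells, and 0 without the replicate block. In rejecting grafts each of those 6 settings gave 0. The difference of that contrast between times gave 2 with TMM, 1 with DESeq2, 0 with Pdcd1 read after thinning, 0 in the depth window, 2 in nondividing cells, and 1 in thinned cells. The share of cells with a metallothionein UMI in 3-week against 1-week grafts differed by -8.76 points without thinning (exact permutation p = 0.0179) and by -1.42 points at 500 UMIs (exact permutation p = 0.0357).

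Leaving out each library gave counts of 6 to 7 (graft over time), 8 to 9 (graft label 24 against 3 weeks), 5 to 6 (spleen over time), 7 to 8 and 8 to 9 (graft against spleen at 1 and 3 weeks), 7 to 7 (labels at 24 weeks), 5 to 6 and 2 to 2 (spleen at 1 and 3 weeks against naive), 4 to 5 (rejecting against accepted), 1 to 5 (rejecting graft against spleen), 2 to 6 and 0 to 0 (PD-1 at 1 and 3 weeks), 4 to 5 (interaction), and 2 to 5 (PD-1 between times). The shares ranged from -3.49 to -0.953 points and from 2.24 to 2.57 points. In rejecting grafts, leaving out 1 library leaves no residual degrees of freedom in the PD-1 contrast, so it was not run.

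With the library number as a replicate block, added after seeing the data, 8, 9, 7, and 4 genes passed in graft against spleen at 1, 3, and 24 weeks and in rejecting mice, so pairing moved no count by over 1.5 times. The share of cells with a metallothionein UMI in graft against spleen at 3 weeks, 2.40 points, lost its call with libraries as pairs (exact permutation p = 0.0625, the smallest that 5 pairs can give). At 1 week every library correlated best with its own number (r = 0.184, 0.0984, and 0.270). Between the labels of 24 weeks r was 0.0160, 0.0738, and 0.233, and library 1 had another best partner. In rejecting mice r was -0.00517 for library 2, which had another best partner, and 0.0112 for library 3. The pairs are thus uncertain there too. The few UMIs of Mt1 and Mt2 in spleen limit their ratios, and 2 rejecting graft libraries limit theirs.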

Other observations

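Of 12 genes of selenoprotein synthesis and small selenoproteins, 2 rose and 5 fell between 1-week and 3-week grafts (median log2 change -0.03), against 53.6% of all genes higher and 21.2% lower (median 0.41). Selenoh fell from 271 to 77.0 CPM (log2 change -1.81, adjusted p = 3.6e-09, edgeR) and Selenof fell from 165 to 90.5 CPM, while Secisbp2, which binds the selenocysteine insertion element, rose from 24.0 to 36.6 CPM. Of 8 genes linked to glucocorticoid signaling, 7 were tested, 4 rose, and 2 fell (median 0.86), with the share that rose near that of all genes. Nr3c1, the glucocorticoid receptor, rose from 66.6 to 166 CPM and Klf9 from 8.06 to 22.0 CPM, while Fkbp5 fell from 28.4 to 18.4 CPM and Ddit4 from 32.8 to 25.3 CPM.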
